A study of Mus musculus with 6 samples.

Results

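CD94, the product of Klrd1, and TIM-3, the product of Havcr2, are receptors on activated CD8+ T cells, and their transcripts differed in opposite directions in virus-specific cells from mice without B cells. At the authors' scaling, Klrd1 was 2.22-fold higher in WT mice and Havcr2 was 4.13-fold higher in JHT mice. Both sizes depend on that scaling: with the medians of listed genes set equal, the log2 change of JHT minus WT was -2.60 ± 0.23 (SE) for Klrd1 and 0.41 ± 0.44 for Havcr2. Equal medians assume that as many listed genes rise as fall, which the authors' selection of genes does not give. The members are the 2 genes of this pair among 1018 genes with a value in the deposited table, taken as its rows for the symbols Klrd1 and Havcr2. They were chosen by their difference between WT and JHT libraries in these same values, and the table itself was selected by the authors on that contrast. The differences below are therefore descriptions, and no test is given for either gene.

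Bulk RNA sequencing was performed on M45 tetramer+ CD8+ T cells, which recognize an epitope of murine cytomegalovirus (MCMV), sorted from the spleens of 3 control (WT) and 3 JHT mice 7 days after infection. All mice were adults on the C57BL/6J background, both sexes were used, WT controls were littermates, and all 6 mice had been infected with MCMV. JHT mice carry a germline deletion of the immunoglobulin heavy chain joining segments and lack B cells throughout life, so loss of B cells before and during infection cannot be told apart. The comparison asked how antiviral CD8+ T cells differ when they are primed without B cells. Each library came from 1 mouse, so the spread between libraries includes that between mice.

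CD94 has no signaling tail of its own and is displayed as a heterodimer with a member of the NKG2 family. With NKG2A, whose cytoplasmic tail recruits phosphatases such as SHP-1, it forms an inhibitory receptor for the nonclassical MHC molecule Qa-1, whereas with NKG2C or NKG2E it forms an activating one. NK cells carry this receptor at rest, and CD8+ T cells acquire it after activation by virus. TIM-3 is an immunoglobulin-family receptor of effector and exhausted T cells whose tail binds the adaptor BAT3 and Src-family kinases, and whose known ligands include galectin-9, HMGB1 and CEACAM1.

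The deposited expression value is scaled for gene length and for the library, so levels of different genes can be set side by side within a library. Its exact definition (RPKM or TPM) is not known here. For each of the 1018 genes, the whole numbers of reads behind its values could be worked out to a tolerance of 0.001. Together the genes held 1909193 to 2888084 reads per WT library and 4040416 to 5742545 per JHT library. These are totals over a selected table, and the depth of each library is unknown. Reads per unit of value, relative to WT-1, were 1.15 in WT-2 and 1.21 in WT-3. They were 1.11, 1.43 and 1.10 in JHT-1 to JHT-3. These factors would be relative depths if the value were RPKM. Of 7 defining CD8 T cell genes, only the T-cell receptor kinase gene Lck had a value, and the remaining 6, including Cd8a and Cd3e, were not analysed here. None of 36 markers of NK cells, B cells, macrophages, dendritic cells, CD4 T cells or red cells had a value in the table, so the part of other cell types in either difference was not tested. In bulk samples, fewer cells carrying a transcript and less RNA per cell cannot be told apart.

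Klrd1 (ENSMUSG00000030165.16) lies on the plus strand at chr6:129591782-129598775 of GRCm38 in GENCODE M21, between the lectin-like receptor genes Klre1 and Klrk1 in the NK gene complex. Its 7 merged exons span 1281 bases, and no other annotated gene overlaps it. Havcr2 (ENSMUSG00000020399.14) lies on the plus strand at chr11:46454935-46481255, between Med7 and Gm12169, and its 7 merged exons span 2721 bases. It also overlaps no other annotated gene. Stretches of 75 and 150 bases were compared with the transcripts of every other gene, and 0 of 1566 and 0 of 1797 distinct stretches of Klrd1 were held by another gene. For Havcr2 the counts were 0 of 2719 and 0 of 2689. Reads of either gene that matched its transcripts exactly over such a stretch could therefore be assigned to a single gene.

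Havcr2 is a known target of T-bet in mouse helper T cells. The T-bet gene Tbx21 was higher in JHT cells, as were 96.6% of listed genes, and a role of T-bet was not tested. The bases before the start of Havcr2 are shown. They are the 250 bases at chr11:46454681-46454930, plus strand, from the RefSeq promoter table on GRCm38.p6, with the core T-box site GGTGTG in capitals.

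Havcr2 upstream: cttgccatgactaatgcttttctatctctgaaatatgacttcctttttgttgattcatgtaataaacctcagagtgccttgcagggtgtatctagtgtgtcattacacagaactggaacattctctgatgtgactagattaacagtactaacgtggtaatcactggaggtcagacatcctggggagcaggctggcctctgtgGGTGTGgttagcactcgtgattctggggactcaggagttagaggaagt

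The core site begins 48 bases before the RefSeq start, which is the base after this window and lies just upstream of the GENCODE start given above, and 16.3% of 32851 promoter windows of the same length hold GGTGTG on either strand. The letters TGTGGT, bound by RUNX factors, begin 46 bases before the RefSeq start and overlap the core site, and 14.0% of windows hold them. One match to the AP-1 motif TGANTCA begins 200 bases before it, a motif found in 6.75% of windows. Neither the longer T-box motif AGGTGTGA, held by 1.12% of windows, nor the E-box CACGTG, held by 6.02%, was found in this window. Both strands were searched for each motif, and the motifs were chosen after the sequence had been seen. A match describes letters only.

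Klrd1 was among the most abundant transcripts of the table. Its deposited values were 1495 in WT-1, 1321 in WT-2 and 1537 in WT-3. The JHT libraries had 575 (JHT-1), 609 (JHT-2) and 775 (JHT-3). The lowest WT library lay above the highest JHT library, and the groups did not overlap. The WT mean was 1451 ± 114 and the JHT mean 653 ± 107 (SD, n = 3 each), 2.22-fold higher in WT. On the log2(value + 1) scale the difference of JHT minus WT was -1.16 ± 0.32 (SE), and -2.60 ± 0.23 with the medians of listed genes set equal. Such an SE comes from a model over the whole table (limma) and is drawn toward the spread of all listed genes. The pooled SD of Klrd1 within groups was 0.18 on this scale. All 1018 listed genes (100%) also showed no overlap between groups, and the table was selected on this contrast, so nothing is read from this.

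These Klrd1 values rested on 39241, 39717 and 48974 reads from WT mice. From JHT mice, 16776, 22926 and 22374 reads were recovered. The 95% exact Poisson interval was narrowest in relative terms in WT-3, at 48541 to 49410 reads, and widest in JHT-1, at 16523 to 17032. Counting error was thus far smaller than the spread between mice. Amplified reads are not independent molecules, so these intervals cover counting error only.

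**Figure D1:**
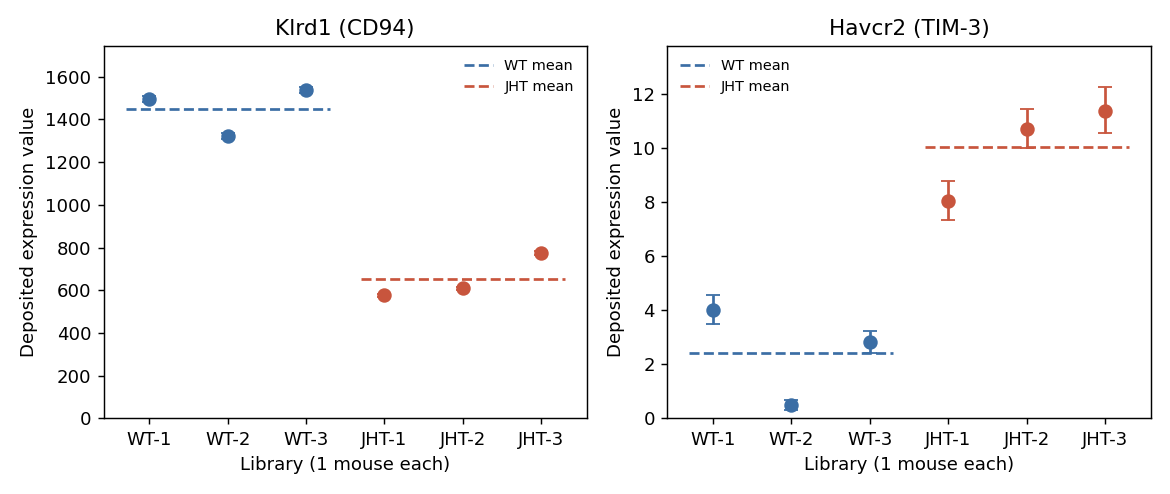
Deposited expression value (y axis, from 0) of Klrd1, left, and Havcr2, right, in each of 6 libraries (x axis). Points are libraries, bars are 95% exact Poisson intervals of the recovered reads, and dashed lines are group means. Klrd1 spans 1321 to 1537 in WT and 575 to 775 in JHT, and Havcr2 spans 0.476 to 4.01 in WT and 8.03 to 11.4 in JHT.

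Within single libraries, Klrd1 ranked 4, 5 and 4 by value among the 1018 genes for the WT mice in order of number. The ranks of the JHT mice were 25, 29 and 25. It made up 1.41, 1.30 and 1.35% of the summed listed values of WT-1 to WT-3, and 0.475, 0.474 and 0.597% for JHT-1 to JHT-3. Both measures place Klrd1 lower in every JHT mouse than in every WT mouse, and both depend on which genes the authors listed.

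Havcr2 was a transcript of low abundance in WT cells. Its values were 4.01 in WT-1, 0.476 in WT-2 and 2.81 in WT-3. It reached 8.03 in JHT-1, 10.7 in JHT-2 and 11.4 in JHT-3. The groups did not overlap, and WT-2 stood far below the other WT libraries. The WT mean was 2.43 ± 1.80 and the JHT mean 10.04 ± 1.77 (SD, n = 3 each), 4.13-fold higher in JHT. The difference on the log2(value + 1) scale was 1.85 ± 0.41 (limma SE), which understates the change of a gene at so low a level. The pooled SD of Havcr2 within groups was 0.68 on this scale. With no pseudocount the difference was 2.50. With the medians of listed genes set equal it was 0.41 ± 0.44 (SE), within its error of 0. That setting lowered JHT relative to WT by 1.44, in a table whose genes were mostly higher in JHT.

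Havcr2 had 228 reads in WT-1, 31 in WT-2 and 194 in WT-3. The 31 reads of WT-2 had a 95% exact Poisson interval of 21.1 to 44.0, below that of WT-3 at 168 to 223. JHT libraries held 508, 873 and 712 reads. The intervals of WT-2 and WT-3 thus did not overlap. Amplified reads are not independent molecules, so the intervals cover the counting of reads only. Whether WT-2 was low through the sampling of few molecules was not tested. WT-2 was the lowest WT library for a minority of listed genes in either direction. Among the 983 genes higher in JHT, it was the lowest WT library for 169 genes (17.2%), as against 647 for WT-1 and 167 for WT-3. Among the 35 genes lower in JHT, it was the lowest for 16 (45.7%), as against 7 for WT-1 and 12 for WT-3.

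The size of the Havcr2 difference depended on which WT mice were included. Without WT-2, the JHT mean was 2.95-fold above the WT mean, and without WT-1 it was 6.11-fold. Leaving out any other library gave 3.85-fold to 4.54-fold. The corresponding range for Klrd1, over all 6 libraries left out in turn, was 2.10-fold to 2.45-fold higher in WT. Both directions held without each library, which was certain beforehand because the groups did not overlap. The Klrd1 size moved little.

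The spread between mice also separated the genes. The coefficient of variation of Klrd1 among WT libraries was 7.88%, and only 21 listed genes had a lower one. That of Havcr2 was 73.9%, and 944 genes had a lower one. The median over listed genes was 36.8% in WT. In JHT libraries the genes were alike, at 16.4% for Klrd1 and 17.6% for Havcr2 against a median of 23.2%. Havcr2 thus varied widely among WT mice and not among JHT mice.

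The table as a whole was uneven in direction. By limma on log2(value + 1) with Benjamini-Hochberg adjustment over the table, 983 genes (96.6%) passed the threshold of 0.05 as higher in JHT and 35 (3.44%) as lower. The median of all log2 changes was 1.47. Havcr2 thus moved with the bulk of the table and Klrd1 against it. These shares follow from the authors' selection of the table and are given only as the setting of the pair.

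**Figure D2:**
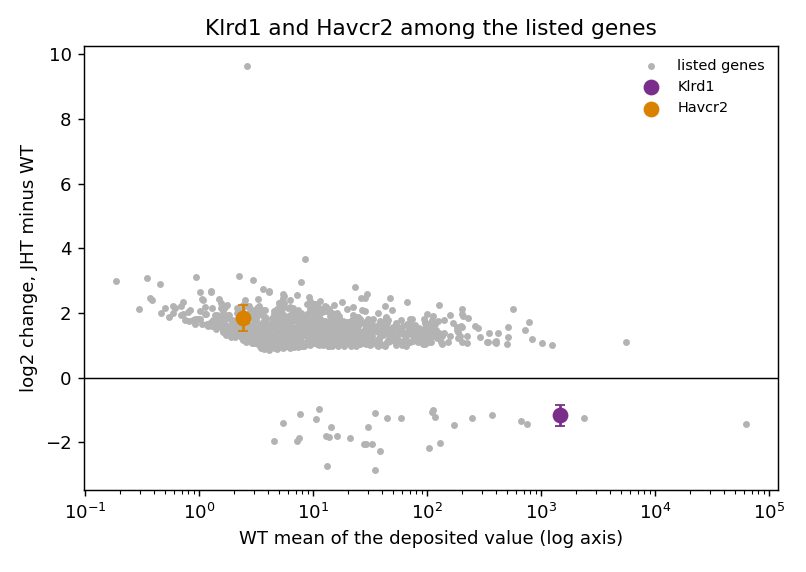
Log2 change of JHT minus WT on the log2(value + 1) scale (y axis) against the WT mean of the deposited value (x axis, log scale) for 1018 listed genes, in grey. Colored points are Klrd1, at -1.16, and Havcr2, at 1.85, with bars of 1 limma SE. Klrd1 lies at high abundance among 35 genes below 0, and Havcr2 at low abundance among 983 genes above it.

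Among the 35 lower genes, Klrd1 had the third highest mean in both groups but stood 31st by fold. Its neighbors in that order were the noncoding RNA genes Zfas1, 2.30-fold, and 2410006H16Rik, 2.23-fold, above it. The mast cell chymase gene Cma1, 2.18-fold, and Gm33782, 2.10-fold, lay below it. The median fold of the lower genes was 2.78, so the Klrd1 difference was small for its direction while its level was high. By mean value among all 1018 genes, Klrd1 went from rank 4 in WT to rank 28 in JHT.

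Havcr2 stood 178th of 983 higher genes by fold, above their median of 2.93-fold. Eri1, which encodes an exoribonuclease of histone mRNA ends, and Ocel1 were next above it at 4.14-fold each. The flap endonuclease gene Fen1, at 4.13-fold, was next below. Its rank by mean value was 893 of 1018 in WT and 829 in JHT. With all libraries the fold of Havcr2 was thus larger than most. Without WT-2 it was 2.95-fold, close to the median of higher genes over all libraries. By mean value Havcr2 stayed among the less abundant listed genes in both groups.

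The ratio of Klrd1 to Havcr2 within a library is unchanged by any factor that scales the whole library. This ratio was 373 in WT-1, 2777 in WT-2 and 547 in WT-3. It was 71.6 in JHT-1, 56.9 in JHT-2 and 68.1 in JHT-3. Every WT mouse had more Klrd1 per Havcr2 than every JHT mouse, a direction that follows from how the pair was chosen. On the log2 scale the mean ratio was 9.69 ± 1.54 in WT and 6.03 ± 0.17 in JHT (SD, n = 3 each), a difference of JHT minus WT of -3.67 ± 0.89 (SE). Without WT-2 it was -2.79 ± 0.29. The JHT mice were close to each other, and most of the spread came from Havcr2 in WT-2.

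**Figure D3:**
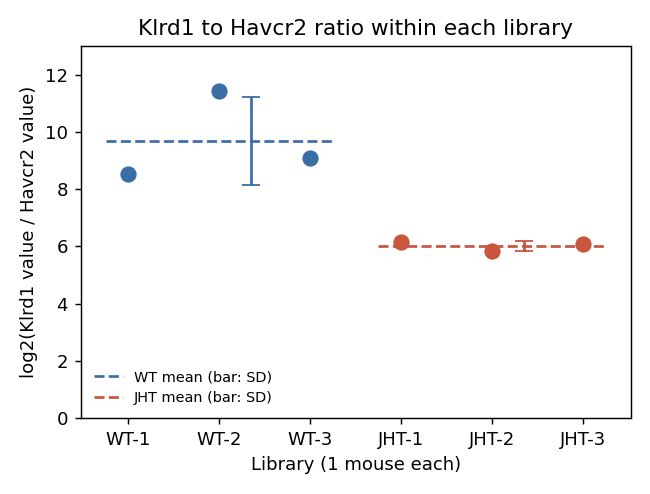
Log2 of the Klrd1 value over the Havcr2 value (y axis, from 0) in each library (x axis). Points are libraries, dashed lines are group means and bars are SD. WT libraries lie at 8.54, 11.44 and 9.10, and JHT libraries at 6.16, 5.83 and 6.09.

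The same within-library ratio was taken against 6 comparators. Ccl5, a chemokine of effector and memory CD8+ T cells, had values of 72803, 50816 and 65259 in WT and 27406, 24107 and 18772 in JHT, 2.69-fold higher in WT. Klrd1 was 2.05, 2.60 and 2.36% of Ccl5 in WT mice and 2.10, 2.53 and 4.13% in JHT mice. The groups overlapped, and the log2 ratio differed by 0.27 ± 0.31 (SE). Klrd1 relative to Ccl5 thus differed by less than its SE, although each gene on its own was lower in JHT. Both genes were selected by the authors as lower in JHT, so a small difference was favored by the choice.

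Against the other comparators Klrd1 was lower in every JHT mouse. Gzmb, the granzyme B gene, had values of 257, 756 and 670 in WT and 1447, 2739 and 2743 in JHT. Prf1, the perforin gene, had 3.28, 2.18 and 5.71 in WT and 15.8, 24.7 and 16.0 in JHT. The log2 ratio of Klrd1 differed by -3.29 ± 0.58 (SE) against Gzmb and by -3.58 ± 0.44 against Prf1, with no overlap. The transcript of the CD94 chain was therefore lower in JHT mice relative to both cytotoxic effector genes.

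The remaining comparators were Lck, Tbx21 and the glycolytic gene Gapdh. Relative to Lck, which was 184, 381 and 299 in WT and 554, 660 and 768 in JHT, the Klrd1 ratio differed by -2.41 ± 0.36 (SE, log2). Relative to Tbx21 it differed by -2.25 ± 0.28, and relative to Gapdh by -2.96 ± 0.41. Again no JHT library reached a WT library. All 5 of these genes were selected by the authors as higher in JHT, so the direction was given by the choice.

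Havcr2 was then set against the same genes. It was 1.56, 0.0630 and 0.419% of Gzmb in WT mice and 0.555, 0.390 and 0.415% in JHT mice. The groups overlapped, and the log2 ratio differed by 0.38 ± 1.35 (SE). Against Prf1 the difference was 0.09 ± 0.75, also with overlap. Both differences were smaller than their errors, and the WT libraries were widely spread. Against Gzmb the WT log2 ratios ran from -10.63 in WT-2 to -6.00 in WT-1. Against Prf1 they ran from -2.20 in WT-2 to 0.29 in WT-1.

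Havcr2 relative to Lck differed by 1.26 ± 1.22 (SE, log2) and relative to Gapdh by 0.71 ± 1.24, and groups overlapped in both. Tbx21 encodes T-bet, and its values were 14.0, 17.2 and 10.8 in WT and 24.0, 31.7 and 33.0 in JHT. The ratio of Havcr2 to Tbx21 was 0.286, 0.0276 and 0.261 in WT and 0.335, 0.338 and 0.345 in JHT. These groups did not overlap, and the log2 ratio differed by 1.41 ± 1.10. The JHT libraries held nearly a constant amount of Havcr2 per Tbx21 (SD of the log2 ratio 0.022), but also per Lck (0.085) and per Gapdh (0.092). WT-1 and WT-3 were close to the JHT ratio to Tbx21, and WT-2 was far below it. Relative to Ccl5, Havcr2 differed by 3.93 ± 0.85 with no overlap. Havcr2 was selected as higher and Ccl5 as lower in JHT, so this separation was given by the choice. The other comparators were selected as higher in JHT, as Havcr2 was, which favors overlap.

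**Figure D4:**
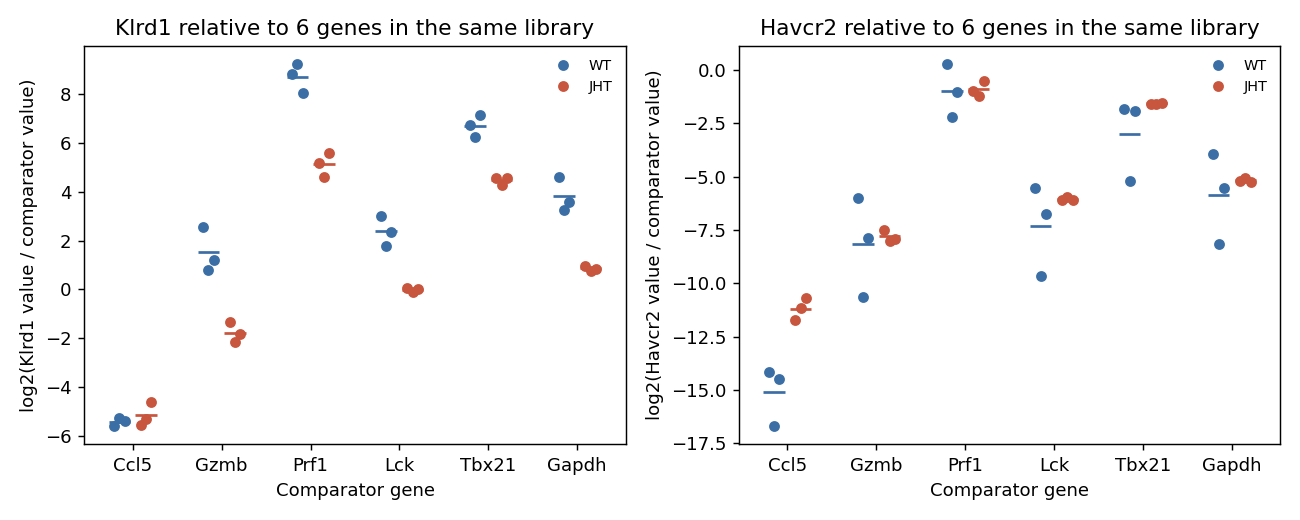
Log2 ratio of Klrd1, left, and Havcr2, right, to each of 6 comparator genes in the same library (x axis, comparator; y axis, log2 ratio). Points are 3 WT and 3 JHT libraries and short lines are group means. Klrd1 overlaps between groups only against Ccl5 (difference 0.27 ± 0.31, SE), whereas Havcr2 overlaps against Gzmb, Prf1, Lck and Gapdh, and its lowest WT point is WT-2 throughout.

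Partners of CD94 were then examined. Of 12 genes for its NKG2 partners, ligand and signaling adaptors, 1 had a value and it passed the limma threshold as higher in JHT, as did 96.6% of all listed genes, so nothing about this group is read from the call. This was Ptpn6, which encodes SHP-1. Its values were 13.2, 30.6 and 29.4 in WT and 66.1, 74.1 and 72.6 in JHT, 2.90-fold higher in JHT. The phosphatase transcript and the Klrd1 transcript thus differed in opposite directions. Klrc1, Klrc2, Klrc3 and the Qa-1 gene H2-T23 were not analysed here, so whether the Klrd1 difference belongs to the inhibitory or the activating form of the receptor was not tested.

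Of 14 genes for TIM-3 ligands, adaptors, shedding enzymes and family members, 2 had a value, and both passed as higher in JHT, against 96.6% of all listed genes, so the count does not set the group apart. Hmgb1, which encodes a nuclear protein that TIM-3 binds outside the cell, had values of 178, 232 and 254 in WT and 431, 507 and 437 in JHT, 2.07-fold higher. Lck, a Src-family kinase recruited through BAT3, was 2.29-fold higher. Lgals9, Ceacam1, Bag6, Adam10 and Adam17 are among the 12 that were not analysed here. The ligand and the kinase transcripts with a value therefore moved in the same direction as Havcr2, as did most of the table.

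Of 22 other inhibitory receptor and ligand genes, including Pdcd1, Lag3, Tigit and Ctla4, 0 had a value, and 0 of 33 lectin-like receptor genes of the NK gene complex other than Klrd1 had one. Klrd1 and Havcr2 could not be placed among their own families on these data. Of 27 transcription factors known to act on effector and inhibitory receptor genes, 2 had a value and both passed as higher, again no more than the 96.6% of the table. These were Tbx21, 2.11-fold, and Bhlhe40, a repressor of the helix-loop-helix family, with values of 10.4, 6.23 and 3.98 in WT and 12.6, 12.5 and 18.8 in JHT, 2.13-fold higher.

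The neighborhood of each gene was inspected for other listed genes. Within 1 Mb of Klrd1 lay 41 other protein-coding genes. Of the annotated genes of any type in that window, 2 had a value, and they differed in direction. BC035044 had values of 1.80, 1.34 and 11.1 in WT and 16.4, 13.7 and 25.5 in JHT, 3.90-fold higher in JHT. BC064078 had 28.0, 24.6 and 36.9 in WT and 2.83, 17.5 and 16.1 in JHT, 2.45-fold higher in WT. Both were named for their position after their values had been seen. Within 1 Mb of Havcr2, 0 of 19 protein-coding genes had a value.

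Finally, genes were ordered by the likeness of their pattern to each receptor gene, as Pearson's r of log2(value + 1) over 6 libraries among 1003 genes above 0 in every library. All points share libraries and the authors' selection, so r is a description. The 5 genes most like Klrd1 were Dnajb13 (r = 0.99), a cochaperone gene, the interferon-induced gene Ifi27l2a (0.98), Zfas1 (0.96), the mitochondrial tRNA gene TrnD (0.93) and the chemokine gene Ccl3 (0.93). Ifi27l2a was more abundant still, at 2492, 2135 and 2525 in WT and 1003, 943 and 1047 in JHT. After removal of group means, r with Klrd1 was 0.90 for Dnajb13, 0.70 for Ifi27l2a and -0.17 for Ccl3. Because the genes were picked for their r over these same libraries, high values after this step are largely set by that choice. The median r with Klrd1 was -0.84, as most listed genes moved the other way, and 11 genes exceeded 0.9.

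The 5 genes most like Havcr2 were Casp8ap2 and Rnpep (both r = 0.99), Sgcb, Csnk1d and Stk19 (0.98 each). Casp8ap2 takes part in histone mRNA processing, Rnpep is an aminopeptidase, Sgcb a sarcoglycan and Csnk1d a casein kinase. Rnpep, for example, had values of 3.91, 1.45 and 3.61 in WT and 7.40, 9.15 and 11.2 in JHT. All 5 genes shared the low value of WT-2, and r after removal of group means was between 0.93 and 0.97, which the choice by r over the same libraries largely sets. Among the comparators, r with Havcr2 was 0.91 for Prf1, 0.71 for Tbx21, 0.64 for Gzmb and 0.59 for Lck. The median over 1003 genes was 0.70, so Prf1 stood above it, Tbx21 close to it, and Gzmb and Lck below. Between Klrd1 and Havcr2, r was -0.76 over 6 libraries and 0.58 after removal of group means.

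**Figure D5:**
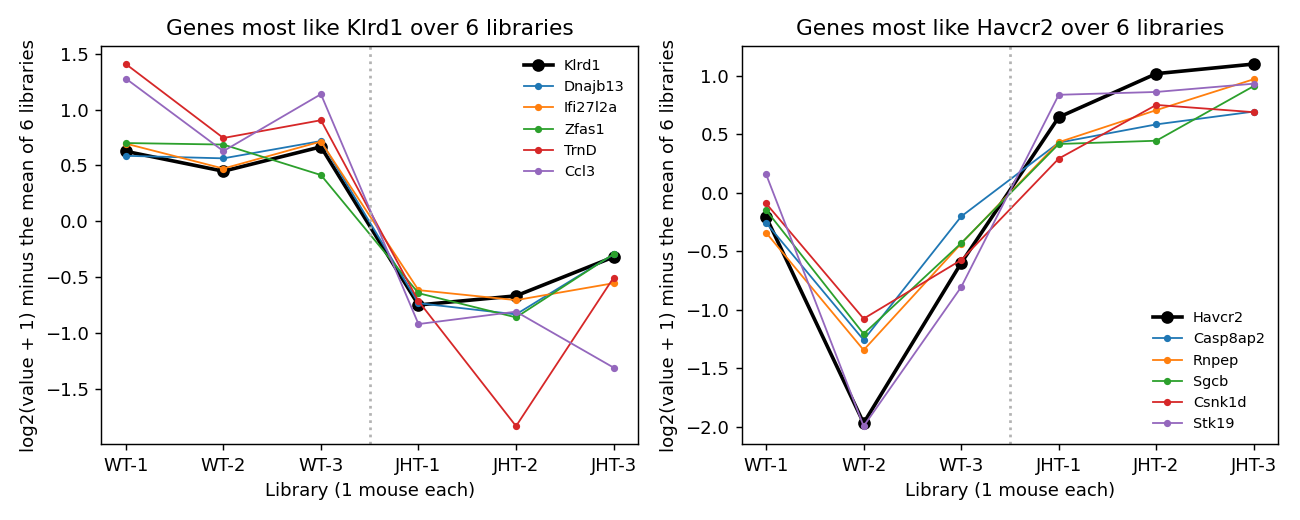
Log2(value + 1) minus the mean of 6 libraries (y axis) in each library (x axis) for Klrd1, left, and Havcr2, right, in black, each with the 5 genes of highest r in color. Lines join the values of a gene and imply no order among mice. The genes like Klrd1 (r = 0.93 to 0.99) are lower in JHT, and those like Havcr2 (r = 0.98 to 0.99) share its low value in WT-2.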

How the data were processed

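The authors trimmed adaptors and ran CLC Genomics Workbench with default RNA-seq settings on GRCm38 with an annotation not given in the sources used here. SMART-Seq cDNA and Nextera XT libraries had been read as paired ends. The authors deposited 1 expression signal per gene and library, never negative and scaled for gene length and library, for 1018 genes. The deposited table also holds the authors' own differences, fold changes, p-values and log2 fold changes, which were not used. In those columns all genes pass 0.05 by unadjusted p and 2 by fold, so the table is selected on the contrast described, and other genes were not analysed here. The paper itself gives the criterion as an adjusted p under 0.05, with a log2 fold change above 1 or below -1.

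Samples were grouped by title. Whole reads were recovered from the ratios between libraries of a gene, as the smallest whole numbers that give the values. A limma 3.58.1 model in R 4.3.3 was fitted to log2(value + 1) over the whole table, with a variance trend and Benjamini-Hochberg adjustment at 0.05, for genes with values of 1 or more in 3 or more libraries. The p-values are conditional on the authors' selection. SEs of log2 changes of single genes are moderated by the variance trend, whereas SEs of ratios come from the ratios alone. A count test was not run. Within-library ratios used values with no pseudocount. The model and the recovery of reads were tested on simulated data. The members, lists, comparators and the rule for named genes were chosen with earlier results of these data known. The rule named the members, every list gene with a value, the 5 genes most like each member, the 2 neighbors by fold on either side, and 6 comparators. One gene named by this rule is not reported here. Alternatives were another pseudocount, no filter, other scalings, each library left out and a replicate block. Promoter sequence came from RefSeq (GRCm38.p6), where 1 of the 2 members had an entry, and protein sequence was not analysed here.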

Additional observations from a re-analysis of the deposited data

How the results depend on the processing

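The signs of both changes and of the ratio were the same under every alternative run, but Havcr2 lay within 1 SE of 0 under both other scalings. Leaving out a library could not reverse a sign, because the groups did not overlap for either gene or for the ratio. Scaling every library to a common median of listed genes, which lowered JHT relative to WT by 1.44 on the log2 scale, gave log2 changes of -2.60 ± 0.23 (SE) for Klrd1 and 0.41 ± 0.44 for Havcr2, with 543 genes higher and 475 lower instead of 983 and 35. Quantile normalization gave -2.20 ± 0.09 and 0.29 ± 0.40, with 540 higher and 478 lower, and a ratio of -2.70. Under these scalings 56 and 60 genes passed limma instead of 1018, of which 35 and 34 were lower. Counts of genes passing limma were added as a result after the data had been seen. Both scalings assume that as many listed genes rise as fall, which the selection of the table does not give. A pseudocount of 0.1 gave 2.40 for Havcr2. Leaving out each library gave -1.29 to -1.07 for Klrd1, 1.32 to 2.21 for Havcr2, -4.24 to -2.79 for the ratio, 973 to 983 higher genes and 956 to 1010 passing. Same-numbered libraries correlated at 0.168, 0.030 and 0.107 after group means were removed and share only a number. With the replicate block the changes were -1.16 ± 0.26 (SE), 1.85 ± 0.41 and -3.67 ± 0.99, and 1018 genes passed.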
